A study of Drosophila melanogaster with 3 samples.

Results

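The genes described here are the 52 protein-coding genes of the Drosophila melanogaster chromosome arms whose symbol begins with eIF or eEF, out of 13945 protein-coding genes in the BDGP 6.54 annotation. Of these, 44 are initiation factor genes (eIF) and 8 are elongation factor genes (eEF). The rule that picks them uses the symbol alone, but this set of genes was proposed with earlier results of these data known. Each peak was given to the gene whose annotated transcription start lay nearest to the peak's summit. By that rule the genes held 17 of the 3688 peaks in the authors' optimal list (0.461%). They held 71 of the 30000 peaks in the relaxed list of the pooled replicates. The relaxed lists of replicates 1, 2 and 3, also of 30000 peaks each, gave them 83, 80 and 50 peaks.

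The peaks came from chromatin immunoprecipitation with sequencing (ChIP-seq) of whole embryos, 8 to 24 h old, of mixed sex. The embryos were of the strain CG4328-GFP, a stably expressing transgenic line in which CG4328, a LIM-homeodomain transcription factor, carries green fluorescent protein (GFP) at its C-terminus. An anti-GFP antibody precipitated chromatin sonicated to 200 to 800 bp. The 3 libraries were biological replicates of 1 group, so every value below describes tagged embryos and no treated or mutant group exists. No control library was analysed here, the promoter driving the transgene is not named in the labels, and they do not say whether the line keeps the untagged gene. Peaks are ranked by the deposited signal value, with rank 1 the highest, because the scale of that value is not given in the sources used here. In whole embryos, a high peak in few cells and a lower peak in many cells cannot be told apart.

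Translation initiation places the initiator tRNA, carried by eIF2, on the small ribosomal subunit, which eIF3 scaffolds and eIF1, eIF1A and eIF5 guide to a start codon. The eIF4 factors bring the mRNA: eIF4E binds the cap, eIF4G bridges it to the ribosome, and eIF4A unwinds the leader. After eIF5B joins the large subunit, eEF1 delivers each aminoacyl-tRNA and eEF2 moves the ribosome along. These genes are housekeeping genes in most cells, although several fly eIF4E, eIF4G and eIF3 genes have paralogues known from the male germ line.

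Of the 52 genes, 14 were the nearest gene of at least 1 optimal peak (26.9%), against 2561 of all protein-coding genes (18.4%). They were eEF1gamma, eIF6, eIF3h, eEF2, eEF1alpha1, eIF3c, eIF2A, eIF3m, eIF4A, eIF1, eIF5B, eIF4E5, eIF2D and eEF5, in order of rank. For 13 genes a summit lay within 500 bp of a start (25.0%), against 12.6% of all genes. Among the 1844 highest optimal peaks, 9 members were named (17.3%), against 10.6% of all genes. When a gene was counted if an optimal peak reached within 500 bp of any of its starts, there were 16 members (30.8%), against 18.8% of all genes. No test was run on these counts, since there is 1 group of embryos and the genes are not replicates. In the pooled relaxed list the members differed little from the rest, with 33 members (63.5%), against 59.6% of all genes.

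The summits sat close to the starts. The best optimal summit lay within 500 bp of a start in 12 of the 14 genes (85.7%), against 63.1% of the 2561 genes with an optimal peak. Its median distance to the start was 65 bp in the members and 236 bp in all genes with an optimal peak. Among promoter summits alone the medians were 49.5 bp in the members and 121 bp in all such genes. The summit was upstream of its nearest start in 11 of the 14 members. In eIF3h, eEF2, eIF2A, eIF3m, eIF4A and eIF5B it lay inside an annotated 5′ leader of the gene, which in eIF2A, eIF4A and eIF5B belongs to transcripts from a start farther upstream. Their median optimal rank was 1443, against 1557 for all genes with an optimal peak. In the replicates' own lists, limited to the 3688 highest peaks of each, the median distance over members was 75.8 ± 36.7 bp (SD, n = 3), with 64.0, 46.5 and 117 bp in replicates 1, 2 and 3.

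**Figure D1:**
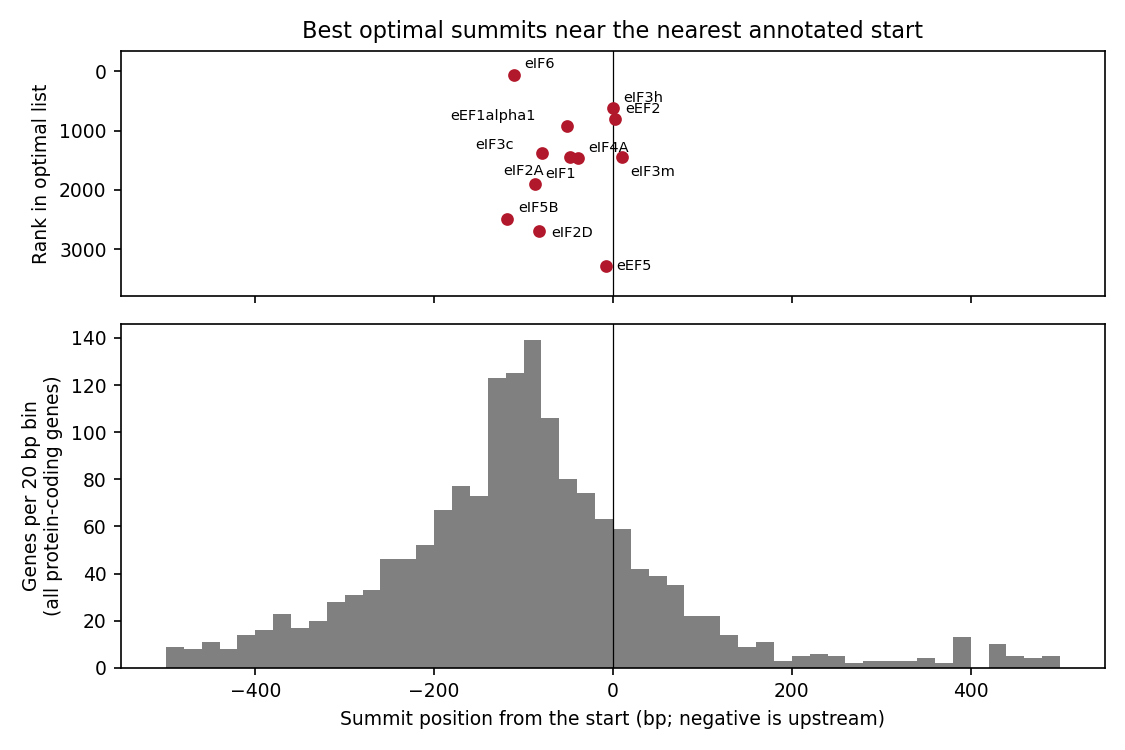
Distance in bp from the nearest annotated start to the best optimal summit, for summits within 500 bp: the members, 1 point a gene, above a histogram of all protein-coding genes with such a summit. The 12 members cluster at the start or just upstream of it.

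The sequences at 4 member summits are shown: both peaks of eEF1gamma, because its distal peak ranked above its promoter peak, and the promoter peaks of eIF1 and eIF2D, whose stretch lies outside the annotated leaders. The distal peak was added after its values were seen. Each line gives up to 60 bases either side of the optimal summit, 5′ to 3′ on the strand of the gene, from the RefSeq copy of the release 6 genome (dm6). Capitals mark exact matches to the motifs searched, which are spelled out with their shares further down.
eEF1gamma promoter peak (chr3R:29220091-29220201, plus strand): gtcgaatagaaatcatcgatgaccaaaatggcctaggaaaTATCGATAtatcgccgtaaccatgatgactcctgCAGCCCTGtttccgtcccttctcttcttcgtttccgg
eEF1gamma distal peak (chr3R:29214379-29214499, plus strand): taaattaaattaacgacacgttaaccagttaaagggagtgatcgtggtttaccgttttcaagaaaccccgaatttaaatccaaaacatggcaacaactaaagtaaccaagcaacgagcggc
eIF1 promoter peak (chr3L:3223194-3223314, plus strand): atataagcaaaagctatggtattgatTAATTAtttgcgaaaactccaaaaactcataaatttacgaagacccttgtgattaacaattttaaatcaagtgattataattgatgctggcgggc
eIF2D promoter peak (chr3R:29151817-29151937, minus strand): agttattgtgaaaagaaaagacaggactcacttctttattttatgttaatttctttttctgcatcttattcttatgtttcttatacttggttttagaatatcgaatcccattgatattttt
The eEF1gamma promoter stretch reached the start and held TATCGATA, the DNA replication-related element, with its first base 41 bp upstream of the start, and CAGCNCTG with its first base 7 bp upstream. In eIF1, TAATTA, a homeodomain core site, began 121 bp upstream of the start. The distal eEF1gamma and the eIF2D stretches held no match.

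The highest-ranked member was eEF1gamma (FBgn0029176), a structural subunit of the complex that recharges eEF1alpha with GTP. It had a pair of optimal peaks on arm 3R. The higher peak, at dm6 chr3R:29214265-29214604, was intergenic, with its summit 5733 bp upstream of the start, and ranked 44 in the optimal list with a signal value of 1142.5. It ranked 43, 37 and 61 in replicates 1, 2 and 3 (mean 47.0 ± 12.5, SD, n = 3), with signal values of 391.3, 476.7 and 279.0. Its summit lay at −5733, −5733 and −5739 bp in the 3 replicates, so the position moved by at most a few bases. That peak is closer to a noncoding gene than to eEF1gamma: the summit was 123 bp upstream of the start of lncRNA:CR31044, which contains the microRNA genes mir-279 and mir-996. The promoter peak, chr3R:29219968-29220302, had its summit 21 bp upstream of the eEF1gamma start and ranked 106 with a signal value of 884.3. It ranked 118, 130 and 78 in the replicates (mean 108.7 ± 27.2, SD, n = 3), so all 3 libraries placed both peaks among their 3688 highest.

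**Figure D2:**
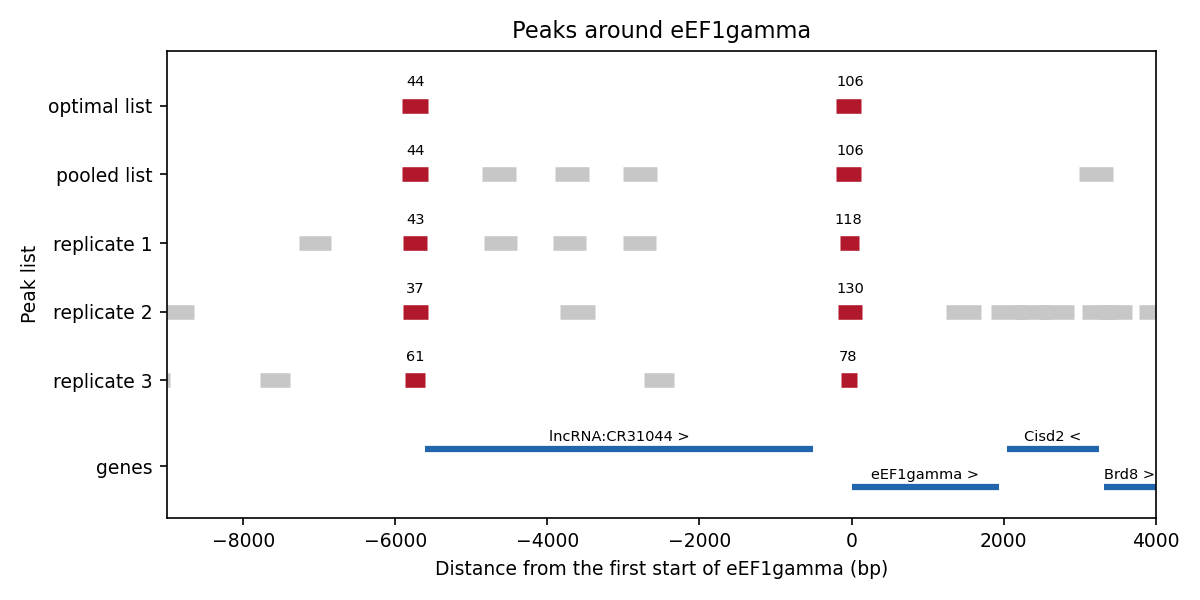
Peaks at eEF1gamma by distance in bp from its start, with peaks of the optimal, pooled and replicate lists as boxes (red and labelled by rank within the 3688 highest of a list, grey below that) and the annotated genes at the bottom. All 3 replicates show both the distal peak next to lncRNA:CR31044 and the promoter peak.

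The other eEF1 genes ranked lower. The gene eEF1alpha1 (FBgn0284245), the main elongation GTPase, had optimal peaks at 2 of its starts on 2R. The peak at chr2R:11891952-11892126 had its summit 51 bp upstream of a start, ranked 921 with a signal value of 307.6, and ranked 1572, 1433 and 350 in replicates 1, 2 and 3 (mean 1118 ± 669, SD, n = 3). The peak at chr2R:11890865-11891314, 45 bp upstream of another start, ranked 1420 and had 1836, 1267 and 4783 as replicate ranks. In replicate 3 that overlapping peak had its summit nearer to ERp60, whose start lies 156 bp away on the other strand. The paralogue eEF1alpha2 had no optimal peak. It was found at pooled rank 17175, with its summit at −276 bp from the start, and in replicate 2 only, at rank 15206. The nucleotide-exchange subunits eEF1beta (pooled rank 7454) and eEF1delta (28681) also had relaxed peaks only.

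Among the remaining elongation genes, eEF2 (FBgn0000559), the translocase, ranked 803 at chr2L:21681889-21682338 with its summit 2 bp inside the transcript. It ranked 696 and 1000 in replicates 1 and 2, with signal values of 123.4 and 126.4, and had no overlapping peak among the 30000 of replicate 3. A further optimal peak of eEF2, at rank 3351 with its summit 149 bp upstream, overlaps the first. The highest-ranked overlapping peaks of replicates 1 and 2 were the same for both. The gene eEF5 (FBgn0285952), the factor also known as eIF5A, ranked 3289 at chr2R:24057565-24058014 with its summit 8 bp upstream. Its replicate ranks were 7785, 5359 and 1285, so only replicate 3 placed it among its 3688 highest. The selenocysteine factor gene eEFSec had no peak in any of the 5 lists. In all, 4 of the 8 eEF genes and 10 of the 44 eIF genes were nearest to an optimal peak, against 18.4% of all genes. With 8 eEF genes, a difference between the 2 groups cannot be read from these counts.

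The genes eIF6 and eIF5B, whose products act on the joining of the large subunit, both had an optimal peak, against 18.4% of all genes. A group of 2 genes is too small to set against that share. The gene eIF6 (FBgn0034915), which keeps the large subunit from joining early, ranked 53 with a signal value of 1093.1 at chr2R:23850251-23850566, 111 bp upstream of its start. It ranked 67, 86 and 24 in replicates 1, 2 and 3 (mean 59.0 ± 31.8, SD, n = 3), with signal values of 341.4, 384.2 and 374.7. The summit lies in an intron of ytr and 82 bp downstream of the start of asRNA:CR45928, so other annotated genes share this interval. The gene eIF5B (FBgn0026259), the subunit-joining GTPase, ranked 2486 at chr3L:3460496-3460945, 118 bp upstream of the nearest of its starts. Its replicate ranks were 3392, 4242 and 1372 (mean 3002 ± 1474, SD, n = 3).

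Of the 16 eIF3 genes, which encode the scaffold complex, 3 were nearest to an optimal peak, close to the 18.4% of all genes. Another 6 had a pooled relaxed peak only and 7 had no pooled peak. Over all genes, 59.6% were nearest to a pooled relaxed peak. The gene eIF3h (FBgn0022023) ranked 625 at chr2L:5052730-5052859 with its summit on the annotated start, and 555, 501 and 1077 in the replicates (mean 711 ± 318, SD, n = 3). Its signal values there were 138.7, 181.6 and 67.0, lowest in replicate 3. The start of senju lies 63 bp away on the other strand. The gene eIF3c (FBgn0034258) ranked 1379 at chr2R:17665374-17665823, 79 bp upstream of its start, and 1812 and 1947 in replicates 1 and 2. The gene eIF3m (FBgn0033902) ranked 1449 at chr2R:14164590-14165039, 10 bp inside the transcript, and 2861 and 1565 in replicates 1 and 2, and its peak overlaps an optimal peak of rank 2266 given to CG8323. Neither eIF3c nor eIF3m had an overlapping peak in replicate 3. The subunits eIF3b (pooled rank 7152), eIF3k (9651) and eIF3f1 (12382) led those with relaxed peaks only, followed by eIF3d1, eIF3g2 and eIF3l. The best pooled summits of eIF3g2 and eIF3l lay far from their starts, at 14239 and 2926 bp. For eIF3g2 the best summit lay at 14415 bp in replicate 1 and 1504 bp in replicate 3. For eIF3l it lay at 477 bp in replicate 1, at rank 8746, and at 2985 bp in replicate 2. In eIF3b the ranks were 5728, 16324 and 3889 in replicates 1, 2 and 3, so its relaxed peak did not stand at a steady height. The paralogues eIF3f2 and eIF3g1 had no peak in any list, and eIF3d2, eIF3e, eIF3i and eIF3j had a peak in a single replicate each. For eIF3d2 the best summit, in replicate 3, lay 9924 bp from its start.

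For the cap-binding and helicase factors, 2 of 13 genes were nearest to an optimal peak, against 18.4% of all genes. The gene eIF4A (FBgn0001942), the DEAD-box helicase, ranked 1458 at chr2L:5982330-5982779, 39 bp upstream of a start, and 890 and 2113 in replicates 1 and 2. It had no overlapping peak in replicate 3. The gene eIF4E5 (FBgn0035823), a cap-binding paralogue, ranked 2500, but its summit lay 12544 bp upstream in an intron of CG32365. Its replicate ranks were 1962, 4765 and 1903. Of the other cap-binding genes, eIF4E1 reached pooled rank 12446 with replicate ranks of 6026 and 3847 and no peak in replicate 3. The gene eIF4E3 reached 10233, and eIF4E4 reached 19118 with its summit 8006 bp from its start. The best summit of eIF4E4 lay at 8099 and 7992 bp in replicates 1 and 2. In replicate 3 it lay at −427 bp, at rank 6769. The genes eIF4E6 and eIF4E7 had a peak in a single replicate each, and eIF4EHP, a cap-binding repressor, had none. The helicase cofactors eIF4H1 and eIF4H2 had pooled ranks of 10859 and 10258, with summits at 7720 and −3504 bp from their starts, and eIF4B had 17593. The best summit of eIF4H1 lay at 162 bp in replicate 1, at rank 5333, and at 7674 and 15155 bp in replicates 2 and 3. The scaffold gene eIF4G1 had a peak in replicate 1 only, at rank 11340, and eIF4G2 had none.

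The initiator tRNA carrier eIF2 and its exchange factor eIF2B gave no optimal peak in any of their 8 genes, against 18.4% of all genes. The groups in this paragraph are too small to set against that share or against each other. Pooled relaxed peaks were found for eIF2beta at rank 6681, eIF2Bdelta at 12596 and eIF2gamma at 18127. The genes eIF2alpha, eIF2Bbeta and eIF2Bgamma had a peak in a single replicate, and eIF2Balpha and eIF2Bepsilon had none. Both genes of the factors that can bring tRNA without eIF2 had an optimal peak: eIF2A (FBgn0037135) ranked 1437 at chr3L:21824692-21825141, 48 bp upstream of its start, and eIF2D (FBgn0041588) ranked 2695 at chr3R:29151652-29152101, 83 bp upstream. For eIF2A the replicate ranks were 1974 and 690, with no peak in replicate 3. For eIF2D they were 2582, 2585 and 3836.

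Of the scanning factors, eIF1 (FBgn0035423), which guards start-codon choice, had the sole optimal peak, at rank 1898 and chr3L:3223029-3223478, 87 bp upstream of its start. The replicate peaks that overlap it ranked 379, 356 and 200, far higher than the optimal peak itself. Their summits lay at −235 to −208 bp from the optimal summit and were nearest to RpL28, a ribosomal protein gene whose start is 381 bp off on the other strand and whose own optimal peak ranked 286 and overlaps that of eIF1. The replicate peaks nearest to eIF1 itself ranked 2784 and 1417 in replicates 1 and 2, and replicate 3 had none. The genes eIF1A (pooled rank 17263) and eIF5 (no pooled peak, replicate ranks 16433 and 17030) had relaxed peaks only.

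**Figure D3:**
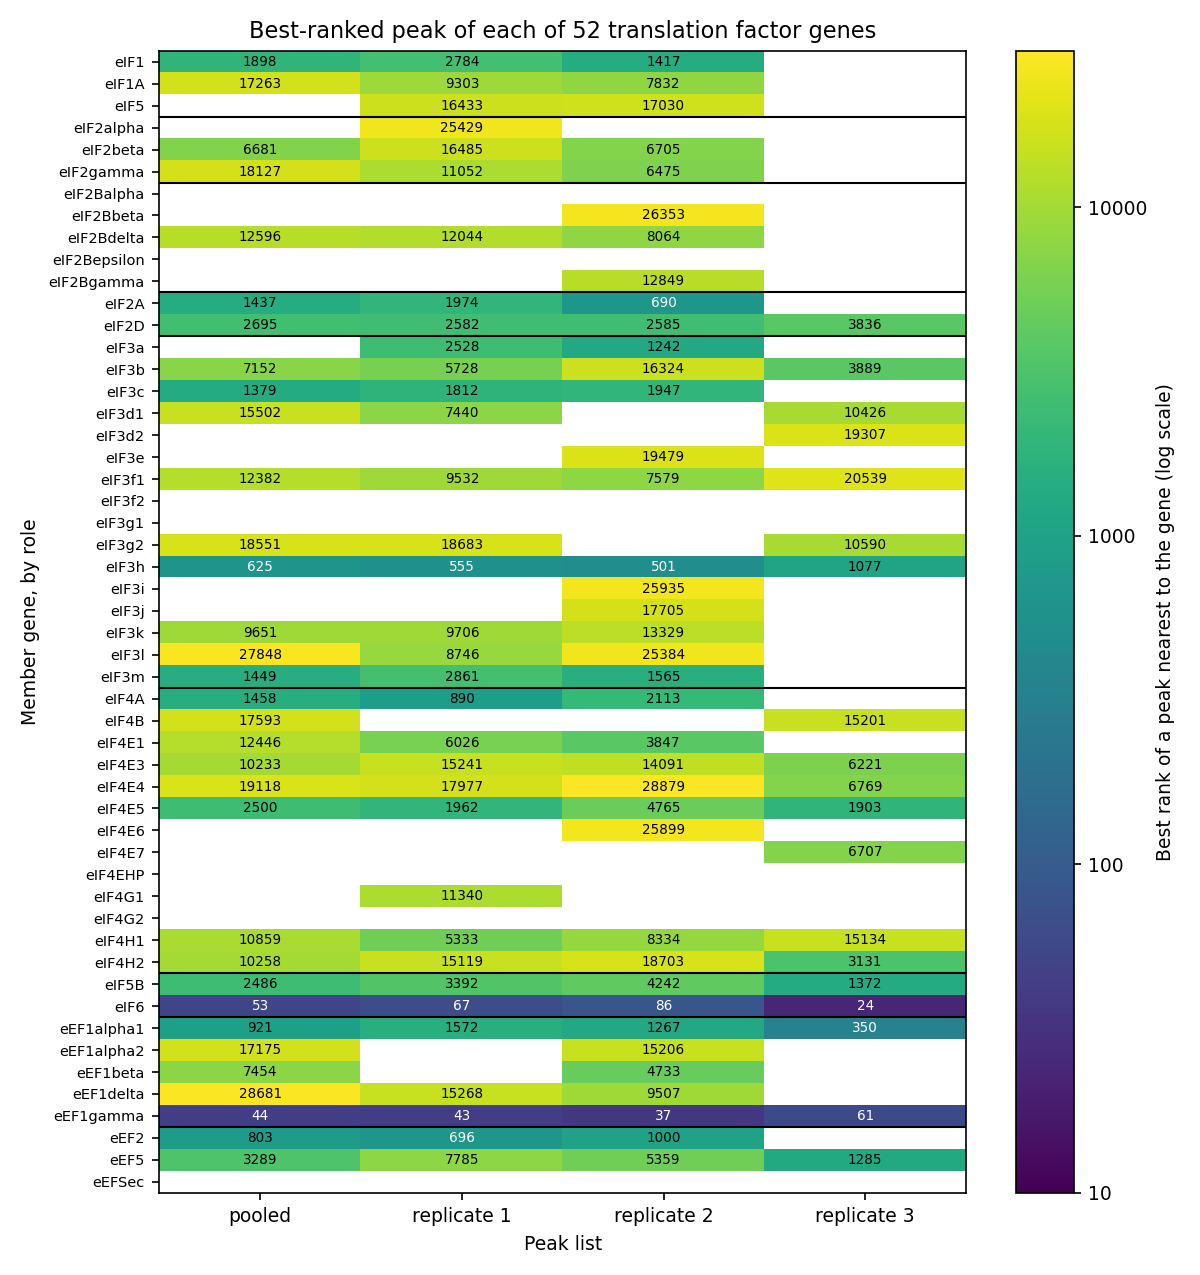
Rank of the best peak of each of the 52 genes in the pooled list and the 3 replicate lists, with genes down the page and lists across. Colour is on a log scale and white where the gene was nearest to no peak. In the pooled column 33 genes are coloured, and replicate 3 has the most white cells of the 3 replicates.

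The replicates did not all hold the optimal peaks of these genes. A replicate supports an optimal peak when at least 1 bp of it overlaps a peak among that replicate's 3688 highest. All 3 replicates supported the best optimal peak of 5 members (35.7% of 14), against 59.7% of the 2561 genes with an optimal peak. Counted over genes, this was 9.62% of the 52 members, against 11.2% of all genes for any optimal peak. The 5 were eEF1gamma, eIF6, eIF3h, eEF1alpha1 and eIF1, and eIF1 owed its support to the peaks near RpL28. With replicate summits required to lie within 100 bp of the optimal summit, 4 remained. No share over all genes is given for that setting, so the drop cannot be read as particular to the members. With support from the remaining pair alone, leaving out replicate 1 gave 5 members (9.62%), against 12.0% of all genes. Leaving out replicate 2 gave 7 members (13.5%), against 12.6% of all genes. Leaving out replicate 3 gave 11 members (21.2%), against 14.0% of all genes.

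**Figure D4:**
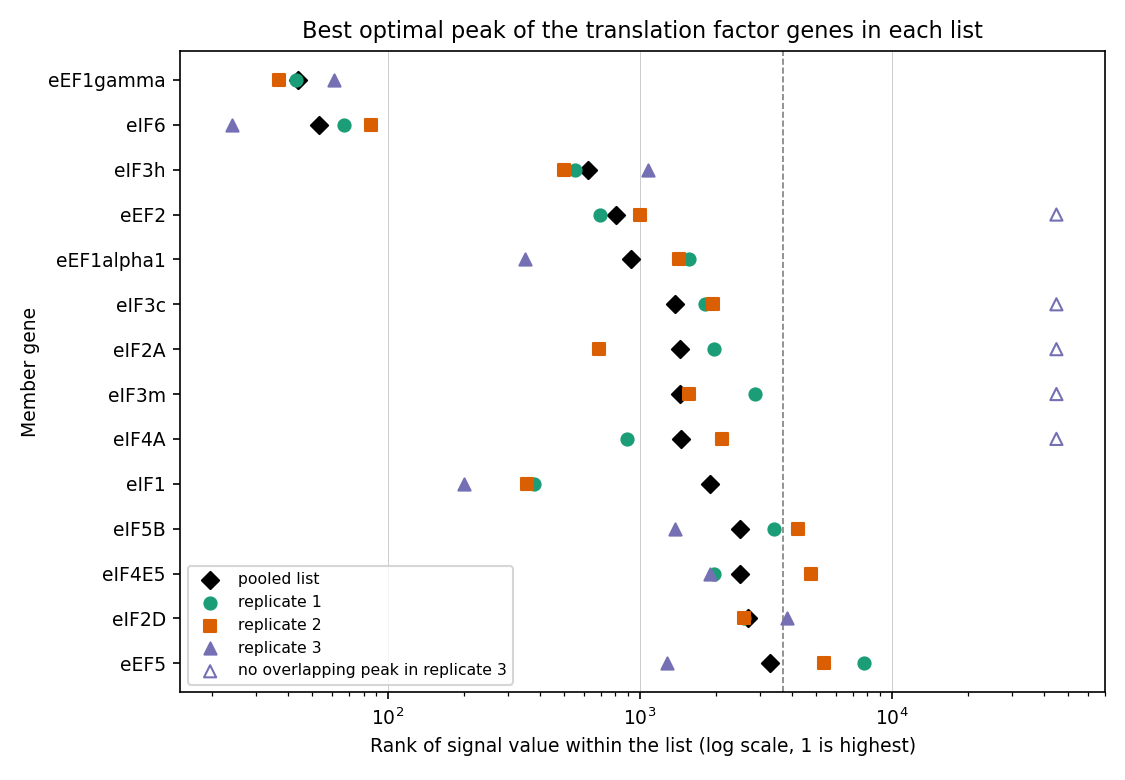
Rank on a log axis of each member's best optimal peak (the same as its rank in the pooled list) and of the highest overlapping peak in replicates 1, 2 and 3, with a dashed line at 3688 and open triangles where replicate 3 has no overlapping peak. Ranks of eEF1gamma and eIF6 lie below 100 in every list, 5 members have a triangle, and the replicate points of eIF1 are peaks with summits nearest to RpL28.

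Replicate 3 gave the fewest members. Among the 3688 highest peaks of each replicate, the members nearest to a peak numbered 14 in replicate 1 (26.9%), against 18.1% of all genes. They numbered 12 in replicate 2 (23.1%), against 17.8% of all genes, and 8 in replicate 3 (15.4%), against 18.4% of all genes. The mean over replicates was 11.3 ± 3.06 members (21.8 ± 5.86%), against 18.1 ± 0.3% of all genes (SD, n = 3). In the whole lists the members numbered 34 in replicate 1 (65.4%), against 61.3% of all genes, and 38 in replicate 2 (73.1%), against 59.5% of all genes. In replicate 3 they numbered 19 (36.5%), against 59.1% of all genes. The mean over the whole lists was 58.3 ± 19.3% of members (SD, n = 3), against 59.1% to 61.3% of all genes. That mean joins shares above those of all genes in replicates 1 and 2 with a share below in replicate 3. No peak of replicate 3 overlapped the best optimal peak of eEF2, eIF3c, eIF2A, eIF3m or eIF4A, which is 5 of 14 members (35.7%), against 14.1% of all genes with an optimal peak. Replicate 3 also had a smaller share of peaks within 500 bp of a start: 28.0% of its member peaks and 17.6% of all its peaks. In replicate 1 these shares were 48.2% of member peaks and 30.2% of all peaks. In replicate 2 they were 48 of 80 member peaks and 32.9% of all peaks. Of the 50 member peaks of replicate 3, 10 were nearest to eIF5B and 7 to eIF4B. The stretch of genome nearest to eIF4B spans 366642 bp. In replicates 1 and 2, eIF5B had 11 and 12 peaks and eIF4B had 0 in each. The part of the lower promoter share of replicate 3 in the missing members was not tested.

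Several members share a promoter region with another gene. Another gene's start lay within 500 bp in 21 of the 52 genes, of which 5 were nearest to an optimal peak (23.8%), against 21.7% of the 4309 such genes in all. Of the other 31 members 9 were (29.0%), against 16.9% of the 9636 genes in all with no other start that close. For 3 members with no optimal peak of their own, a neighbour's optimal peak reached within 500 bp of a start. In eIF3a that peak ranked 1803 and was given to CG1074, with its summit 52 bp upstream of the eIF3a start. Replicates 1 and 2 had peaks nearest to eIF3a itself at ranks 2528 and 1242. In eIF4EHP the peak ranked 32 and was given to CG18428, with its summit 237 bp upstream of the eIF4EHP start. In eIF2Bbeta the peak ranked 3 and was given to Ugalt, with its summit 684 bp upstream of the eIF2Bbeta start. The nearest-start rule therefore leaves some of the list's highest peaks outside the 52 genes although they touch a member's promoter.

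The members with optimal peaks were spread over 4 arms. They were 3 of 5 members on 2L, 5 of 13 on 2R, 4 of 11 on 3L and 2 of 15 on 3R, and none of 7 on X or of 1 on chromosome 4. Over all genes the share nearest to an optimal peak ranged from 17.0% on 2R to 19.8% on 3L, and was 18.3% on X. The stretch of genome nearest to each member was shorter, with a median of 3218 bp in members and 4250 bp in all genes.

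Exact matches to 8 known motifs, of core promoters and others, were sought on both strands. A match could lie anywhere within 100 bp of the best optimal summit, which for eEF1gamma is the distal peak. Its position relative to the start was not considered. TATCGATA was found in 1 of 14 members (7.14%, in eIF2A), against 4.33% of all genes with an optimal peak. The homeodomain core TAATTA was found in 1 of 14 (7.14%, in eIF1), against 18.5% of them. The initiator TCAGT was found in 4 of 14 (28.6%: eIF2A, eIF3c, eIF3m and eIF5B), against 32.7%. The TATA box TATAAA was found in 4 of 14 (28.6%: eEF1gamma, eIF1, eIF3m and eIF6), against 36.8%. The GAGA motif GAGAG was found in 3 of 14 (21.4%: eIF3c, eIF4A and eIF4E5), against 22.6%. The E-box CAGCTG was found in 1 of 14 (7.14%, in eIF3h), against 9.92%. The motif CAGCNCTG was found in 1 of 14 (7.14%, in eEF5), against 5.31%, and GGTCACACT in none, against 1.8%. Median GC content within 100 bp of the best summits was 42% in members and 35.3% in all genes with an optimal peak.

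The same motifs were sought in whole promoters, taken as 250 bp upstream to 50 bp downstream of any start. The element TATCGATA was found in 15 of the 52 members (28.8%), against 10.2% of all genes. It was in 5 of the 14 members with an optimal peak (35.7%), against 13.4% of all genes with an optimal peak, and in 10 of the 38 members without (26.3%). The motif CAGCNCTG was in 7 members (13.5%), against 8.89% of all genes. It was in 5 of the 14 members with an optimal peak (35.7%), against 13.4% of all genes with an optimal peak, and in 2 of the 38 without (5.26%). The motif TAATTA was in 17 members (32.7%), against 24.3% of all genes. It was in 2 of the 14 members with an optimal peak (14.3%), against 28.2% of all genes with an optimal peak, and in 15 of the 38 without (39.5%). The E-box CAGCTG was in 5 members (9.62%), against 22.3% of all genes, and GGTCACACT in 4 (7.69%), against 6.78%. TCAGT was in 24 members (46.2%), against 58.6% of all genes, TATAAA in 24 (46.2%), against 51.3%, and GAGAG in 15 (28.8%), against 36.4%.

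Counted over single starts, the 77 starts of members can be set beside all 19607 annotated starts. TATCGATA was at 22.1% of member starts, against 7.99% of all starts, CAGCNCTG at 11.7%, against 7.01%, and TAATTA at 23.4%, against 18.9%. CAGCTG was at 7.79% of member starts, against 18.0% of all starts, TCAGT at 40.3%, against 52.2%, TATAAA at 39.0%, against 42.2%, and GAGAG at 24.7%, against 33.2%. GGTCACACT was at 5.19% of member starts and 5.23% of all starts. Starts of 1 gene can share a window, so they are not independent.

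The polypyrimidine initiator, known from ribosomal protein genes, was searched on the transcript strand as CCTTTC or CCTTTT or TCTTTC or TCTTTT with its first base within 5 bp of the base before a start. It was found in 6 of the 52 members (11.5%), against 2.13% of all genes. In eEF2 it was TCTTTC, with its first base 3 bp after the annotated start. Members with it and an optimal peak were eEF2, eEF5, eIF3m and eIF4A, which is 4 of 14 (28.6%), against 4.41% of all genes with an optimal peak. Members with it and no optimal peak were eIF3f1 and eIF3i, which is 2 of 38 (5.26%). Of the 91 cytoplasmic ribosomal protein genes, 55 (60.4%) had it.

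Other genes of translation were counted in the same way, from lists chosen with results of these data known. Of the 91 cytoplasmic ribosomal protein genes, 69 were nearest to an optimal peak (75.8%), with a median rank of 612 and a median distance of 22 bp. All 5 release and recycling factors had an optimal peak, with eRF3 at rank 1436, pix at 1338, pelo at 2430, HBS1 at 3287 and eRF1 at 3309. Of 14 regulators of initiation, 6 had an optimal peak. Lk6, a kinase of eIF4E, ranked 17 with its summit in an intron at −1001 bp from its nearest start, and Thor, the eIF4E-binding protein, ranked 1026. pAbp ranked 1071, Paip2 1534, Tctp 2551 and mxt 3391. Among 20 cytoplasmic aminoacyl-tRNA synthetase genes 6 had an optimal peak, led by SerRS at rank 705 and IleRS at 709. Of the mitochondrial genes, 1 of 9 translation factors and 11 of 73 ribosomal proteins (15.1%) had an optimal peak. For all of these counts the share over all genes is the 18.4% given first. The mitochondrial counts depended on the nearest-start rule. An optimal peak reached within 500 bp of a start in 24 of the 73 mitochondrial ribosomal protein genes (32.9%), against 18.8% of all genes. Such a peak was found for 0 of the 9 mitochondrial translation factors.

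**Figure D5:**
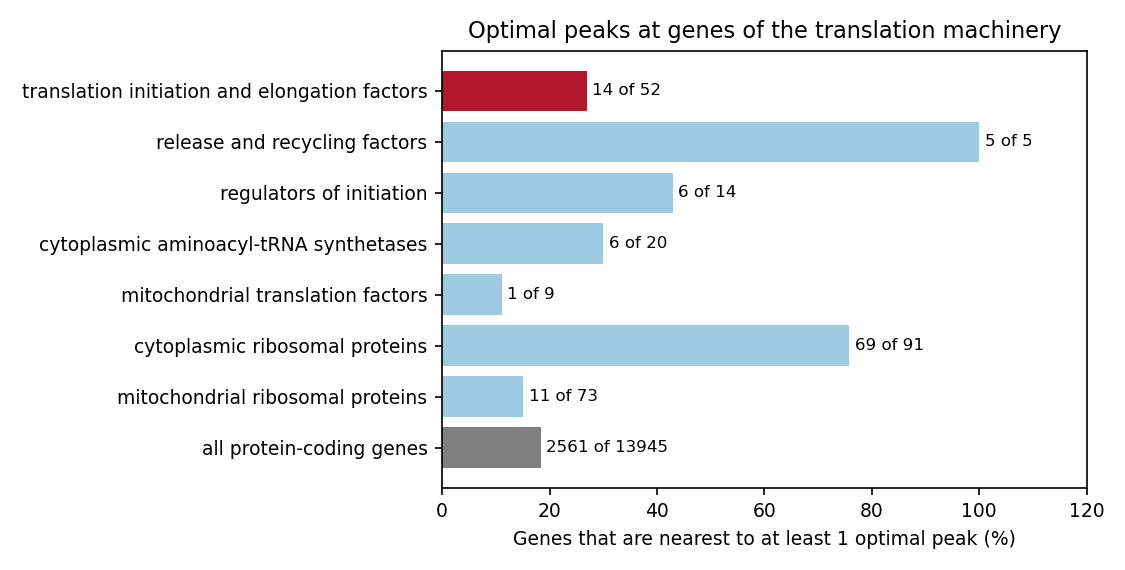
Percent of genes nearest to an optimal peak in each list of translation genes and, as the last bar, in all protein-coding genes. The initiation and elongation factors stand at 26.9%, between the cytoplasmic ribosomal proteins at 75.8% and all genes at 18.4%.

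When noncoding genes were also allowed to compete for each summit, 12 members were nearest to an optimal peak (23.1%), against 16.7% of all protein-coding genes. The members lost were eIF6, whose summit is nearer to asRNA:CR45928, and eIF4E5. The distal eEF1gamma summit went to lncRNA:CR31044, while eEF1gamma kept its promoter peak.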

How the data were processed

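The data were 10 peak lists of 3 biological replicates of CG4328-GFP embryos, 5 in each of the builds dm6 and dm3. The 5 dm3 lists were not used here. Peaks carry a deposited signal value that the authors computed on a scale no source used here gives, so it only ranked peaks within a list. Per the deposited text notes, a control entered each replicate list beside the alignments, the pooled list came from all 3 sets of alignments, and the optimal list was drawn from the relaxed ones. The aligner, peak caller and reproducibility threshold were not given in the sources used here. No read counts were used, so depth is unknown and no value carries counting error.

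Genes were the 13945 protein-coding genes on 6 arms in the BDGP 6.54 annotation (Ensembl release 115), with 19607 starts, and coordinates are 1-based. Summits were assigned to the nearest start, and a promoter summit lay within 500 bp. Positions, overlaps and motifs were computed with Python 3.11.15, pandas 2.3.3 and numpy 2.4.6, and the assignment and overlap steps were tested on simulated data. Sequences came from RefSeq's release 6 genome, and with at most 30 bases of an annotated 5′ leader shown, none from 1 arm and no stretch under 100 bases. The members and lists were chosen with earlier results of these data known. Every member with an optimal peak is named, the 10 of best rank with replicate values, then up to 10 with relaxed peaks by rank, and paralogues whatever their values. In the pathway lists, Tor was not matched, and ico and mEFG1 were the same gene. Alternatives changed the nearest-gene rule, the promoter distance, the overlap, the replicates used and the motif window. The limit of 100 bp between summits was chosen after seeing the data. No test was run.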

Additional observations from a re-analysis of the deposited data

How the results depend on the processing

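Of 38 alternative values, 26 stayed within 1.5 times a reported count, within 1 SD of the reported distance or, for motif shares, inside the 95% Wilson interval of the reported share, and 12 did not. The count of 14 members nearest to an optimal peak was 12 to 16 under other rules of assignment. It was 9 among the 1844 highest peaks, 5 with support from all 3 replicates, and 5 to 11 when a replicate was left out and support from the other two was required (5 without replicate 1, 7 without replicate 2, 11 without replicate 3). The count of 5 members supported by all 3 replicates was 9 with the whole replicate lists and 4 with an overlap of at least 50% of the optimal peak. No share over all genes is given for those settings, so neither change can be read as particular to the members. The same count was 5 to 11 when a replicate was left out, with 11 without replicate 3. The count of 12 promoter-class members was 12 with distances of 250 or 1000 bp. Among members that kept support, it was 4 of 5 without replicate 1, 5 of 7 without replicate 2 and 10 of 11 without replicate 3. The median distance of 65 bp was 51 to 111 bp when a replicate was left out, highest without replicate 2. Within 50 bp of the summit, CAGCTG was in 0% of the 14 members and TCAGT in 7.14%, and TCAGT was in 57.1% of their promoter windows, all outside that interval. With 14 genes that interval is wide, and inside it TATCGATA still went to 28.6% and CAGCNCTG to 21.4% in promoter windows, each from 7.14%. TATAAA, at 28.6% near the summit, was at 14.3% within 50 bp and 50% in promoter windows, and GGTCACACT, at 0% near the summit, was at 7.14% in promoter windows. The cause of these shifts was not tested, beyond that fewer peaks qualify under stricter support. No paired analysis was possible because there is 1 group. Depth is unknown and no control library was analysed here, which limits what heights and missing peaks can show, and a gene with no peak among 30000 cannot be called unbound.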
